A study of Mus musculus with 6 samples.

Results

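The transcription factor NRF2 (gene Nfe2l2), its inhibitor KEAP1 and the genes NRF2 is known to act on were followed through 6 RNA-seq libraries of mouse embryonic fibroblasts. The set holds 38 protein-coding genes named by symbol from general knowledge of the pathway, with earlier results of these data known. They are out of 55487 genes in the deposited count table, and no symbol occurred more than once. All 38 had enough reads to be tested, among 16962 genes tested in all.

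NRF2 is made continuously and, in unstressed cells, is bound by KEAP1 and handed to a CUL3 ubiquitin ligase for destruction. Oxidants and electrophiles modify KEAP1, NRF2 then accumulates in the nucleus, pairs with a small MAF protein and binds antioxidant response elements (ARE), while BACH1 and BACH2 occupy the same kind of site as repressors. Its targets make glutathione and NADPH, run the thioredoxin system, conjugate and export foreign compounds, and break down haem and store the released iron. Most control of NRF2 is on the protein, which RNA-seq does not measure.

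The cells were wild-type primary fibroblasts grown out of mouse embryos, labelled non-senescent at passage 1 (P1, a passage being one replating of the culture) and senescent at passage 6 (P6). Each passage has 1 vehicle library, 1 α-amyrin library and 1 β-amyrin library, both compounds at 20 µM over 3 days, and poly(A) RNA was sequenced. The amyrins are isomeric plant triterpenoid alcohols that carry a methyl group at different carbons of the last ring. The labels name no replicate culture and do not say that the P6 cells came from the same isolate as the P1 cells, so passage and isolate cannot be told apart, and p-values measure only the spread among these libraries.

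Library totals ran from 18798418 to 28752332 counts. Levels are CPM, read counts per 1000000 after TMM correction of library size, and can be compared between libraries but not between genes. For the labelled cell type, 14 fibroblast markers had a summed level of 36975 to 44848 CPM at P1 and 51351 to 57232 CPM at P6; of these Tcf21 was at 0 in P6 vehicle and P6 α-amyrin. Singly, 10 of the 14 were lower at P6, 2 were higher and 2 were not called, with a median log2 fold change of -0.55, so the sum and most of its markers went opposite ways. Markers of macrophages, 19 in all, differed between the passages. Their sum at P1 was 396 CPM (vehicle), 346 CPM (α-amyrin) and 46.8 CPM (β-amyrin), and at P6, in that order, 5801, 5924 and 4116 CPM. All 18 of the markers that could be tested were higher at P6, and Cd163 was at 0 in the 3 P6 libraries. P1 β-amyrin therefore stood apart, with a macrophage sum 8.47-fold below that of P1 vehicle. Macrophages express several of the 38 genes, among them Hmox1, Fth1, Ftl1 and Sqstm1; the part of these cells in the results below was not tested. Summed markers of epithelial and mesothelial cells were 135 to 165 CPM at P1 and 9.22 to 10.6 CPM at P6, of muscle 91.2 to 108 and 12.2 to 18.1 CPM, of endothelium 32.4 to 32.7 and 8.33 to 11.4 CPM, and of adipocytes 36.7 to 100.4 and 284 to 585 CPM. In RNA from whole cultures, fewer cells of a type and less RNA per cell cannot be told apart.

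Per unit of gene length, as FPKM, the set was led by the ferritin chains. The mean over the 6 libraries was 1344 FPKM for Ftl1 and 304 FPKM for Fth1, and the next were Txn1 at 143, Prdx1 at 138, Ephx1 at 128 and Sqstm1 at 126 FPKM. Slc7a11 at 0.942, Pir at 0.688 and Gsta3 at 0.164 FPKM were the lowest. The 38 genes together took 0.475% to 0.5% of all counts at P1 and 0.740% to 0.771% at P6. Their share was thus higher in each P6 library than in any P1 library. A share weights genes by their counts, and the ferritin chains held the most at P6. Fth1 was at 333 to 482 CPM at P1 and 1557 to 1772 CPM at P6, and Ftl1 at 1071 to 1186 and 1605 to 1852 CPM. The share without the ferritin chains was not worked out.

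Promoters of 7 members are printed to show windows with and without a match to a core motif of the element that NRF2 is known to bind. The first 5 were picked from the 9 members whose window holds the core of the antioxidant response element. Of these 5, Prdx1, Gclm, G6pdx and Nfe2l2 rose at P6 and Ugdh fell. Of the 9, those not printed are Abcc4, which rose, and Gsta3, Txnrd1 and Pir, which were not called. Slc7a11, with the deepest fall at P6, and Cat, which rose, are among the 22 members whose windows hold no match to the core. Fth1, Blvrb and Osgin1, which also rose, are among those 22. Each is the 250 bases before the annotated start, 5′ to 3′ on the gene's strand, from RefSeq on GRCm38.p6. Capitals mark the ARE core, TGACNNNGC on either strand.
Prdx1: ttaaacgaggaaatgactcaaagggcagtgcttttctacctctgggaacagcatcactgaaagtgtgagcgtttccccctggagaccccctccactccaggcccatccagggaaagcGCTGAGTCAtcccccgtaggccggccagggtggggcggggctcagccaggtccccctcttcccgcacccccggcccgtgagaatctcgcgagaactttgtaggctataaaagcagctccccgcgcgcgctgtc
Gclm: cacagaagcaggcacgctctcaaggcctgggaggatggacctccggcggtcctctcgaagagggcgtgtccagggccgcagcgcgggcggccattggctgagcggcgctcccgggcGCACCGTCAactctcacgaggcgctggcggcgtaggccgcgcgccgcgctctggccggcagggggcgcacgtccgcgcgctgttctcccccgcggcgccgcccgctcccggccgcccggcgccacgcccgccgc
G6pdx: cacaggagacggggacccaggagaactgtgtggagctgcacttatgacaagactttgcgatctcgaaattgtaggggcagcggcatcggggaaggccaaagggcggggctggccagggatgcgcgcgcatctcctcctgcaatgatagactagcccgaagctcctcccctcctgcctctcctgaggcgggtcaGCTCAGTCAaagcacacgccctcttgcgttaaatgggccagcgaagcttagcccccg
Nfe2l2: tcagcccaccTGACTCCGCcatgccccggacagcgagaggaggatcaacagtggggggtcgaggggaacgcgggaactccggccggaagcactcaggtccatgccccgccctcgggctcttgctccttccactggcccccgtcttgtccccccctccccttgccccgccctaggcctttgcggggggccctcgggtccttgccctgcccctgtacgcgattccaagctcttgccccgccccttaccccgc
Ugdh: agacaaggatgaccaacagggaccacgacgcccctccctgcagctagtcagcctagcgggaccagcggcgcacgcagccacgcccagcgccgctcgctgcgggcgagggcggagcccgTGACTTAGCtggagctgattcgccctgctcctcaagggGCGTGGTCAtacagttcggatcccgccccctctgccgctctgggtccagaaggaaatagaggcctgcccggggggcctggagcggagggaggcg
Slc7a11: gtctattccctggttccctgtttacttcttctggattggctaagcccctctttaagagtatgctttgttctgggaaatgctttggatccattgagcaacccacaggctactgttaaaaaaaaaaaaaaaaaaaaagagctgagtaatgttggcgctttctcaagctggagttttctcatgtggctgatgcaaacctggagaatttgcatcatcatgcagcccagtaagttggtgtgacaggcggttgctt
Cat: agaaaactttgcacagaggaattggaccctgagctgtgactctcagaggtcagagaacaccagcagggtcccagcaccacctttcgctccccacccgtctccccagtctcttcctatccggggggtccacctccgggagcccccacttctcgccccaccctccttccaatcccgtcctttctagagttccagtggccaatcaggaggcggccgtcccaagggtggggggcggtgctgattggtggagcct

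These windows lie at chr4:116685349-116685598, plus strand for Prdx1, chr3:122245307-122245556, plus strand for Gclm, chrX:74428881-74429130, minus strand for G6pdx, chr2:75704664-75704913, minus strand for Nfe2l2, chr5:65435843-65436092, minus strand for Ugdh, chr3:50443614-50443863, minus strand for Slc7a11 and chr2:103485154-103485403, minus strand for Cat. In Prdx1 the core begins 133 bases before the start and reads GCTGAGTCA, and it overlaps a match to the AP-1 motif TGANTCA that begins 131 bases before the start. Gclm holds GCACCGTCA 134 bases before its start, and G6pdx holds GCTCAGTCA 57 bases before. In Nfe2l2 the match TGACTCCGC lies 240 bases before the start. Ugdh holds a pair of matches, TGACTTAGC at 132 and GCGTGGTCA at 94 bases before its start.

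RefSeq gave at least 1 promoter window for 31 of the 38 members, 39 windows in all. No window was held for Hmox1, Gclc, Gsr, Abcc1, Prdx6, Gsta4 or Trim16. The ARE core stood in 10 of the 39 windows (25.6%), belonging to 9 members: Gsta3, Nfe2l2, Gclm, Prdx1, Ugdh, Txnrd1, Abcc4, G6pdx and Pir. Of all 32851 promoter windows of that length, 3338 (10.2%) held it. AP-1 matches stood in 5 member windows (12.8%), those of Srxn1, Prdx1, Osgin1, Gstp1 and Pir, against 6.75% of all windows; the match of Pir and 1 of the 2 matches of Prdx1, that at 131 bases before the start, overlap the ARE core, while the match of Prdx1 at 237 bases does not. A match describes letters in a window. No match to the core motif searched for says nothing of other forms of the element or of sites further away.

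P6 against P1 asks how the pathway differed between the passage labelled senescent and the one labelled non-senescent. Of the 38 members, 22 rose (57.9%) and 6 fell (15.8%), while 10 did not pass the test (edgeR quasi-likelihood, Benjamini-Hochberg adjusted p below 0.05). Of all genes tested 30% were called higher and 29.1% lower, 59.2% in all against 73.7% of the members. The members' calls thus leaned upward while the calls over all genes were close to even. The set was named with earlier results of these data known, so this lean describes the list and is not a test of it. The median log2 fold change was 0.30 over the members and 0.00 over all genes. By size, 5 members rose at least 2-fold (Fth1, Hmox1, Blvrb, Osgin1 and Cat) and 1 fell at least 2-fold (Slc7a11), where 9.93% and 6.59% of all genes did so. In CPM, 22 members had every P6 library above every P1 library and 6 the reverse, while 10 overlapped; of all genes 32.5% and 32.2% were separated in these directions. Without P1 β-amyrin 22 members were higher and 4 lower, the lost falls being Trim16 and Prdx6. Of the 17376 genes tested in that fit, 4647 were higher and 4566 lower.

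**Figure D1:**
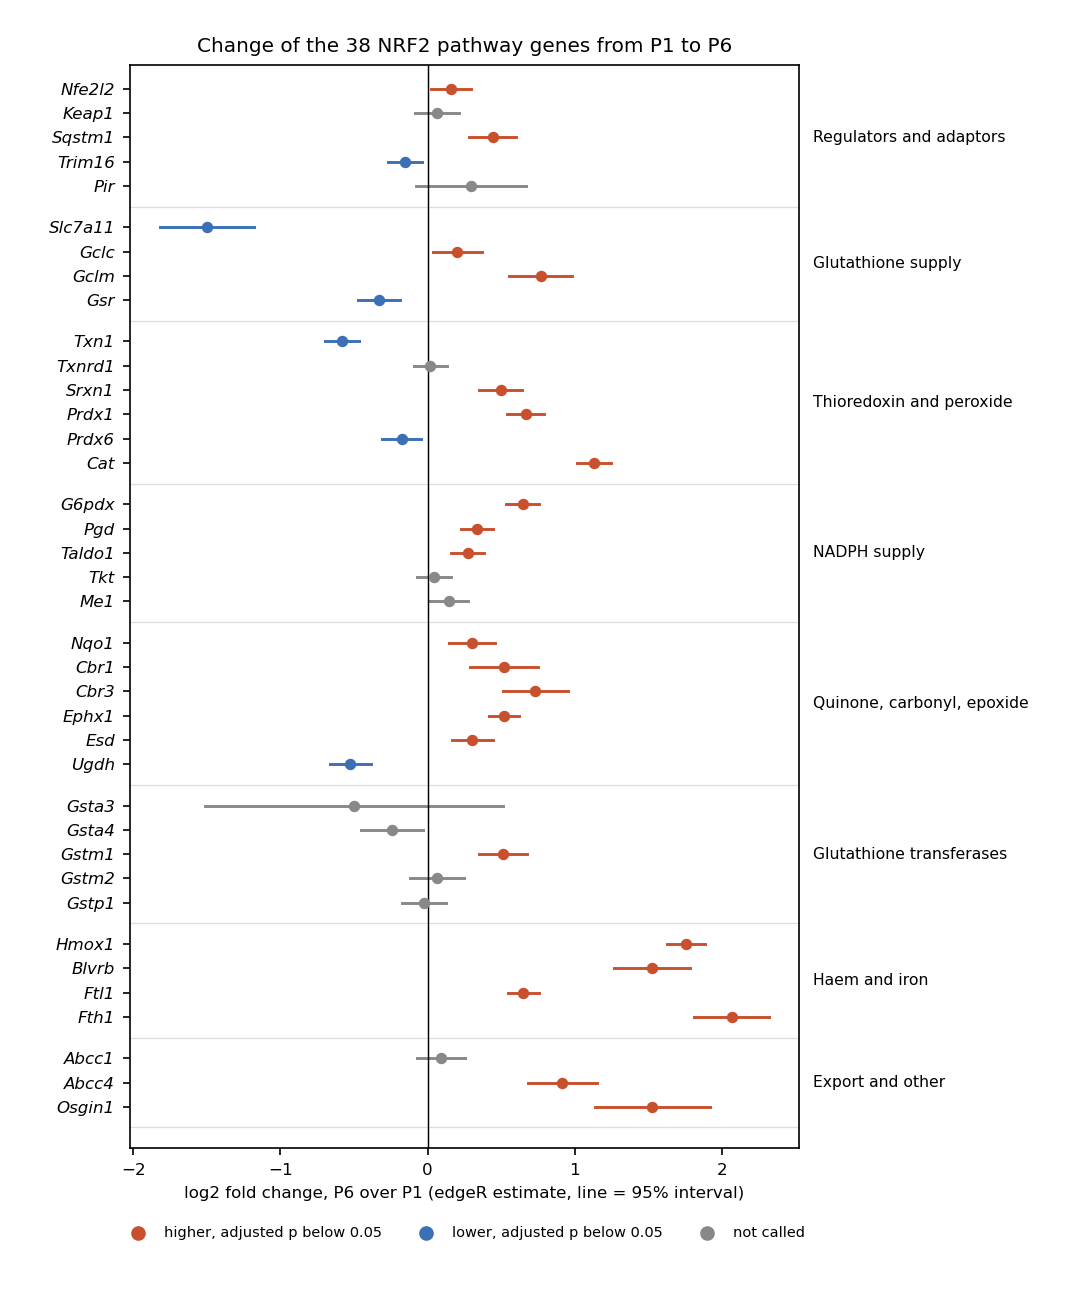
Log2 fold change of P6 over P1 for each of the 38 genes, grouped by role; points are edgeR estimates over the 6 libraries, bars are 95% intervals, and colour shows whether the gene was called higher, lower or not. Fth1 lies furthest to the right at 2.07 and Slc7a11 furthest to the left at -1.50, and all 4 haem and iron genes lie right of 0.

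The haem and iron genes were the only one of the 8 roles in which every member rose. Hmox1 encodes haem oxygenase 1, which opens haem to biliverdin, carbon monoxide and free iron (chr8:75093621-75100589, plus strand, mm10). It was at 96.8 CPM (vehicle), 71.8 CPM (α-amyrin) and 74.2 CPM (β-amyrin) at P1 and, in that order, 327, 259.6 and 234 CPM at P6. Every P6 library was far above every P1 library, and at each passage the vehicle library was the highest of its 3. The log2 fold change was 1.76 ± 0.05 (SE), 3.38-fold, with an edgeR adjusted p of 2.69e-06, and leaving out each library in turn gave 1.71 to 1.79.

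Fth1 encodes the ferritin heavy chain, which oxidises iron for storage (chr19:9980598-9985098, plus strand, mm10). Its level was 410.5, 482 and 333 CPM at P1 and 1557, 1754 and 1772 CPM at P6. P1 β-amyrin was the lowest library, and no P6 library came near the P1 range. The log2 fold change was 2.07 ± 0.11, 4.19-fold and the largest rise of the set (edgeR adjusted p = 1.43e-05; 1.88 to 2.17 with each library left out in turn). Ftl1, the ferritin light chain, rose less. It was at 1071, 1186 and 1076 CPM at P1 and 1605, 1852 and 1775 CPM at P6, without overlap, a log2 fold change of 0.65 ± 0.04 (edgeR adjusted p = 3.8e-05). A gene model on the opposite strand, Gm10252 (chr7:45459469-45460300, mm10), overlaps Ftl1 and held 84.6% to 87.8% as many counts as Ftl1 in each library, so the level of Ftl1 is uncertain; Ftl1-ps1 held 1.17% to 1.71%.

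Blvrb, a biliverdin reductase, was at 6.06, 6.35 and 5.71 CPM at P1 and 19.4, 19.5 and 13.8 CPM at P6. All 3 P6 libraries were above P1, and P6 β-amyrin was the lowest of them. Its log2 fold change was 1.53 ± 0.11 (edgeR adjusted p = 4.46e-05). Beside these genes stand the macrophage sums above, which were at least 10.4-fold higher in each P6 library than in any P1 library. At P1 the macrophage sum was 396, 346 and 46.8 CPM with vehicle, α-amyrin and β-amyrin; Hmox1 was lower with both compounds and Fth1 was highest with α-amyrin and lowest with β-amyrin. At P6 the sum was lowest with β-amyrin, where Hmox1 and Blvrb were lowest and Fth1 was highest.

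Among 15 further genes of haem and iron handling, 8 were higher and 3 lower at P6, beside 30% and 29.1% of all genes. Tfrc, the transferrin receptor that brings iron into the cell, was at 157, 139.7 and 179.7 CPM at P1 and 50.3, 51.0 and 58.5 CPM at P6. It fell 2.98-fold, a log2 fold change of -1.57 ± 0.06 (edgeR adjusted p = 4.19e-06), opposite in sign to the ferritin chains. Slc48a1, a haem transporter of the lysosome, rose by 1.28 ± 0.05 on the log2 scale. Slc40a1, ferroportin, the exporter of iron, was at 6.71, 5.23 and 4.34 CPM at P1 and 24.6, 18.4 and 13.5 CPM at P6 and rose by 1.78 ± 0.09. Within each passage Slc40a1 was highest with vehicle and lowest with β-amyrin.

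**Figure D2:**
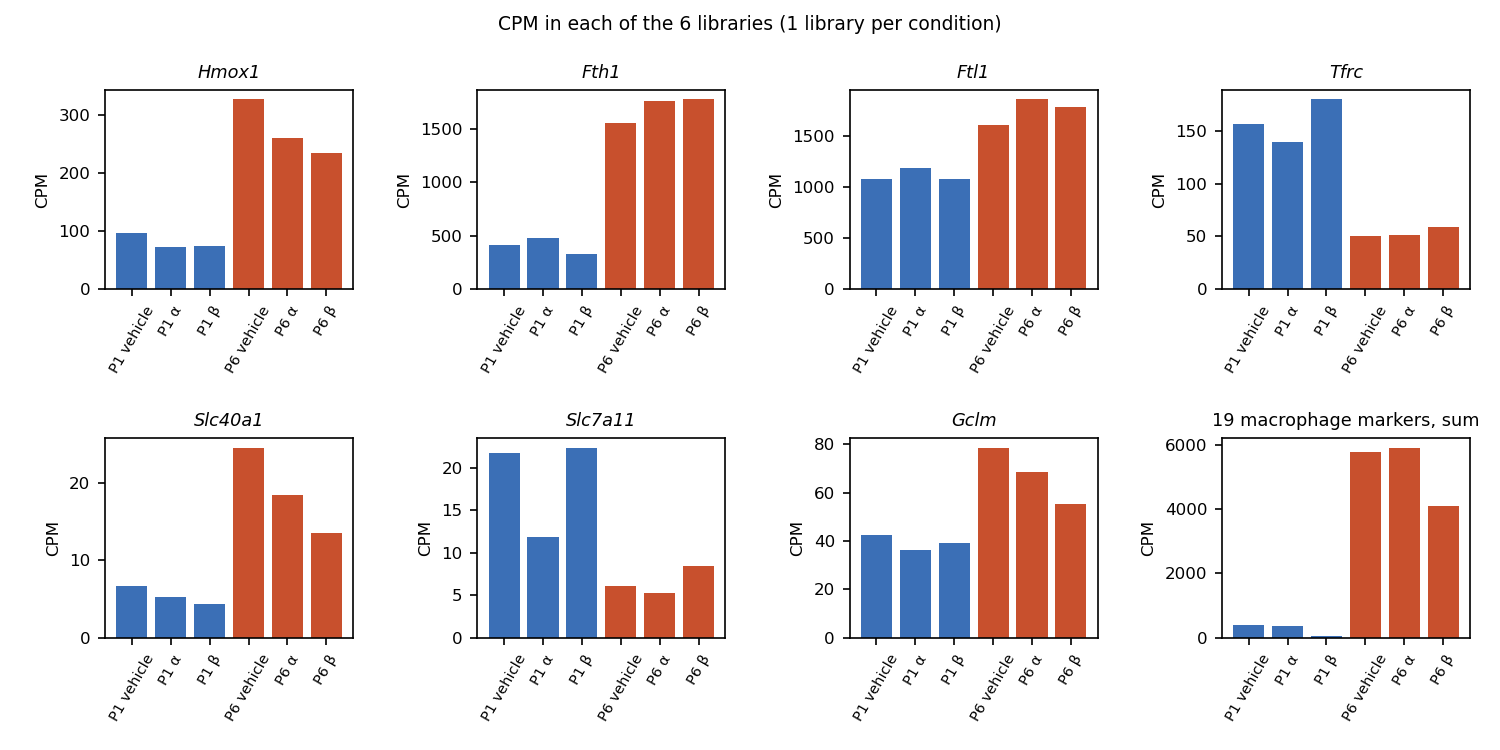
CPM in each of the 6 libraries for genes of iron and cystine handling and for the summed macrophage markers; each bar is 1 library, axes start at 0 and differ between panels. Fth1 and Hmox1 are higher in all 3 P6 libraries, and Tfrc and Slc7a11 are lower in all 3.

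The glutathione genes split. Slc7a11 is the light chain of the transporter that brings cystine in for glutathione synthesis (chr3:49892526-50443614, minus strand, mm10). Its level was 21.7 CPM (vehicle), 11.8 CPM (α-amyrin) and 22.3 CPM (β-amyrin) at P1 and, in that order, 6.01, 5.20 and 8.36 CPM at P6. Every P6 library lay below every P1 library, and at both passages the α-amyrin library was the lowest. It fell 2.83-fold, a log2 fold change of -1.50 ± 0.13 (edgeR adjusted p = 0.000111; -1.63 to -1.32 with each library left out in turn). Its partner Slc3a2, named here after its values were seen, fell too, by 0.50 on the log2 scale.

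Gclm, the modifier subunit of glutamate-cysteine ligase, which makes the first bond of glutathione, was at 42.5, 36.1 and 39.3 CPM at P1 and 78.5, 68.6 and 55.3 CPM at P6. The P6 libraries were all above P1, with vehicle the highest and β-amyrin the lowest of them. The log2 fold change was 0.77 ± 0.09 (edgeR adjusted p = 0.00037). Gclc, the catalytic subunit of the same enzyme, was at 47.0, 42.7 and 47.6 CPM at P1 and 61.2, 46.9 and 50.5 CPM at P6. P1 vehicle and P1 β-amyrin lay just above P6 α-amyrin, so the passages overlapped. Its log2 fold change of 0.20 ± 0.07 was just past the threshold (edgeR adjusted p = 0.0429) and did not pass without P1 vehicle, P1 α-amyrin, P6 vehicle or P6 α-amyrin (0.10, 0.23, 0.10 and 0.24). Gsr, the reductase that regenerates glutathione, fell by 0.33 ± 0.06; its P1 libraries held 39.0 to 40.2 CPM and its P6 libraries 29.3 to 33.0 CPM.

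Of 15 other glutathione genes 4 were higher and 6 lower, beside 30% and 29.1% of all genes. The 3 with the smallest adjusted p were Glrx, a glutaredoxin, which rose by 1.31 ± 0.09, Gpx7, a peroxidase of the endoplasmic reticulum, at -0.79 ± 0.07, and Gss, glutathione synthetase, which rose by 0.53 ± 0.06 on the log2 scale.

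In the thioredoxin and peroxide group 3 members rose (Prdx1, Cat and Srxn1), 2 fell (Txn1 and Prdx6) and Txnrd1 did not pass the test. Cat, catalase, was at 59.8, 55.0 and 54.8 CPM at P1 and 133, 124 and 114 CPM at P6. Every P6 library was above every P1 library, 2.19-fold in the fit, a log2 fold change of 1.13 ± 0.05 (edgeR adjusted p = 7.87e-06). Prdx1, a peroxiredoxin that removes hydrogen peroxide, was at 323, 302 and 304 CPM at P1 and 467, 502 and 505 CPM at P6, with a log2 fold change of 0.67 ± 0.05. Srxn1, which repairs over-oxidised peroxiredoxins, was at 50.9, 44.8 and 44.1 CPM at P1 and 67.3, 61.2 and 68.5 CPM at P6 and rose by 0.50 ± 0.06 (edgeR adjusted p = 0.000501). For these 3 genes the passages did not overlap.

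Thioredoxin itself and its reductase did not follow Prdx1. Txn1 was at 179, 174 and 198 CPM at P1 and 113, 121 and 134 CPM at P6, so every P6 library was below every P1 library. Its log2 fold change was -0.58 ± 0.05 (edgeR adjusted p = 7.87e-05). Txnrd1, thioredoxin reductase, was at 387, 309.8 and 369 CPM at P1 and 400.3, 326 and 353 CPM at P6. Its passages overlapped and the estimate was 0.02 ± 0.05 with a 95% interval of -0.09 to 0.13 (edgeR adjusted p = 0.742), while in both passages the α-amyrin library was the lowest. Prdx6, a peroxiredoxin that uses glutathione, fell by 0.18 ± 0.06 (edgeR adjusted p = 0.0297), a call that was lost without P1 vehicle, P1 β-amyrin, P6 vehicle or P6 β-amyrin (-0.18, -0.14, -0.17 and -0.14).

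Of 15 other thioredoxin and superoxide genes, 7 were higher and 3 lower, beside 30% and 29.1% of all genes. Sod3, the superoxide dismutase of the extracellular space, was at 10.2, 10.8 and 9.33 CPM at P1 and 51.7, 37.9 and 51.8 CPM at P6 and rose by 2.21 ± 0.13 on the log2 scale. Txnip, which binds and inhibits thioredoxin, rose by 0.83 ± 0.07, and Msrb1, a methionine sulfoxide reductase, by 0.58 ± 0.05.

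NADPH supply was represented by enzymes of the pentose phosphate pathway and by malic enzyme; 3 of the 5 rose and none fell. G6pdx, the enzyme of the first step, was at 70.3, 69.0 and 63.2 CPM at P1 and 106, 111 and 100.1 CPM at P6. The passages did not overlap and the log2 fold change was 0.65 ± 0.05 (edgeR adjusted p = 4.6e-05). Ikbkg overlaps G6pdx on the opposite strand and held 69.7% to 106% as many counts, so the level of G6pdx is uncertain too. Pgd and Taldo1, later enzymes of the pathway, rose by 0.34 ± 0.04 and 0.27 ± 0.05. Tkt at 0.04 ± 0.05 and Me1 at 0.15 ± 0.05 did not pass the test, the latter with an edgeR adjusted p of 0.0542 that fell to 0.0162 without P1 β-amyrin and 0.0173 without P6 β-amyrin. Among 11 other NADPH genes 3 were higher and 4 lower, beside 30% and 29.1% of all genes. Idh2, the mitochondrial isocitrate dehydrogenase, was at -0.83 ± 0.05 and Me2 at -0.61 ± 0.06. H6pd, which makes NADPH inside the endoplasmic reticulum, was at 0.71 ± 0.05.

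The quinone, carbonyl and epoxide enzymes rose except for Ugdh. Nqo1, a quinone reductase widely read as a marker of NRF2 activity, was at 22.9, 21.1 and 22.1 CPM at P1 and 28.7, 27.1 and 25.7 CPM at P6. The lowest P6 library was P6 β-amyrin, still above P1. The log2 fold change was 0.30 ± 0.07 (edgeR adjusted p = 0.00688; 0.27 to 0.33 with each library left out in turn).

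Cbr1 and Cbr3, carbonyl reductases, are neighbours on chromosome 16 (chr16:93605853-93610505 and chr16:93683215-93690990, mm10), and both rose. Cbr3 was at 9.67, 10.1 and 10.4 CPM at P1 and 18.1, 16.2 and 15.8 CPM at P6, a log2 fold change of 0.73 ± 0.09. Cbr1 was at 17.6, 16.6 and 15.7 CPM at P1 and 21.4, 24.2 and 26.1 CPM at P6, a log2 fold change of 0.52 ± 0.10 (edgeR adjusted p = 0.0035). Both had every P6 library above every P1 library.

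Ephx1, the microsomal epoxide hydrolase, was at 189, 203 and 198 CPM at P1 and 277, 281 and 287 CPM at P6 and rose by 0.52 ± 0.04. Esd, an esterase that acts on a glutathione adduct of formaldehyde, rose by 0.30 ± 0.06 (edgeR adjusted p = 0.00395). Ugdh makes UDP-glucuronic acid, used both for conjugation and for matrix sugars. It was at 134, 181 and 152 CPM at P1 and 102, 115 and 105 CPM at P6, with every P6 library below P1 and the α-amyrin library the highest of each passage, and its log2 fold change was -0.52 ± 0.06 (edgeR adjusted p = 0.000299).

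Among the glutathione transferases 1 of 5 rose. Gstm1 was at 15.6, 20.0 and 19.5 CPM at P1 and 23.6, 28.3 and 26.6 CPM at P6, with no overlap of the passages and the vehicle library the lowest in each, and its log2 fold change was 0.51 ± 0.07 (edgeR adjusted p = 0.000711). Its neighbour Gstm2 on chromosome 3 was at 0.06 ± 0.08 and Gstp1 at -0.02 ± 0.06, neither past the test. Gsta4 was at -0.24 ± 0.09 with an edgeR adjusted p of 0.0533. Gsta3 was under 1 CPM in every library and its estimate of -0.50 ± 0.43 is too imprecise to give a direction. These genes belong to families of close copies, and the treatment of reads shared between copies was not stated.

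Of 31 other genes of conjugation and detoxification 23 could be tested. Of these, 18 were higher and 1 lower at P6, beside 30% and 29.1% of all genes. Ugt1a7c, a glucuronosyltransferase, was at 1.76, 2.14 and 1.69 CPM at P1 and 9.10, 10.5 and 8.32 CPM at P6 and rose by 2.32 ± 0.13. Aox1, an aldehyde oxidase, rose by 1.55 ± 0.11 and Aldh3a2, a fatty aldehyde dehydrogenase, by 0.70 ± 0.06.

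Of the remaining targets, Osgin1, an oxidative stress-induced growth inhibitor, was at 2.07, 1.80 and 1.65 CPM at P1 and 6.85, 5.31 and 3.94 CPM at P6. All P6 libraries were above P1, and in each passage the order was vehicle, α-amyrin, β-amyrin. The log2 fold change was 1.53 ± 0.16, 2.88-fold (edgeR adjusted p = 0.000251). Abcc4, an exporter of cyclic nucleotides and drugs, was at 13.3, 10.4 and 11.2 CPM at P1 and 22.8, 23.3 and 19.7 CPM at P6 and rose by 0.92 ± 0.10 (edgeR adjusted p = 0.000261). Abcc1, which exports glutathione conjugates, was at 0.09 ± 0.07 and did not pass. Of 6 other exporters 4 were tested: Abcc3 rose by 3.21 ± 0.10 on the log2 scale, the P1 libraries holding 3.70 to 7.61 CPM and the P6 libraries 41.9 to 62.1 CPM, Abcc5 rose by 0.44 ± 0.04 and Abcg2 fell by 0.19.

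**Figure D3:**
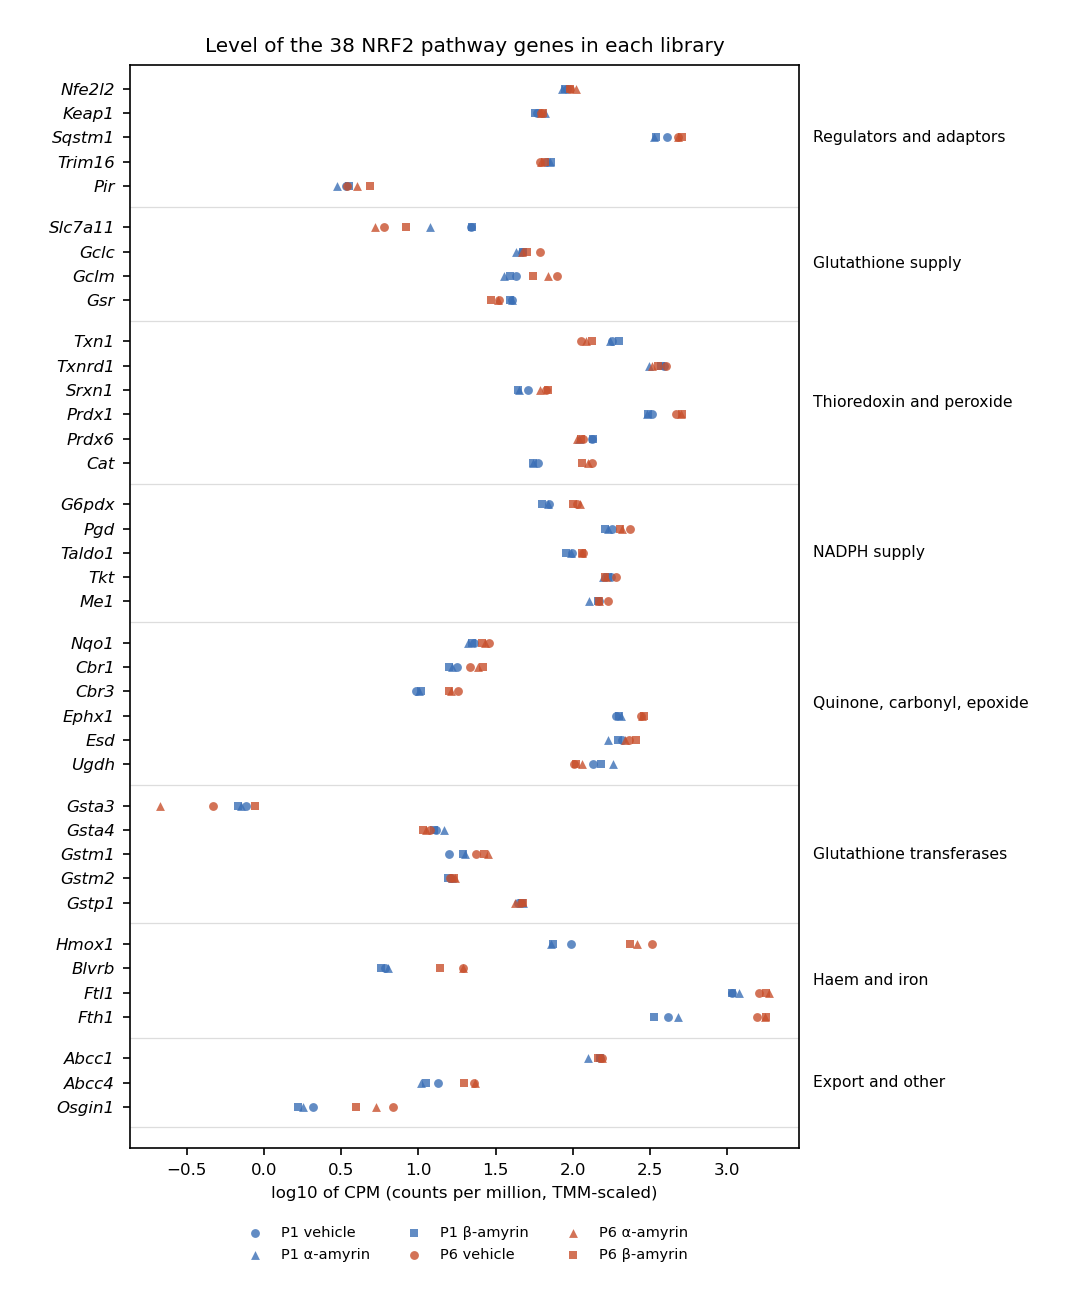
Level of each of the 38 genes in each of the 6 libraries on a log10 scale of CPM, grouped by role; each symbol is 1 library, coloured by passage and shaped by treatment. Hmox1, Blvrb, Fth1, Abcc4 and Osgin1 have all P6 symbols to the right of P1, Slc7a11 and Txn1 have them to the left, and Keap1 and Txnrd1 overlap.

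Of the 5 regulators 2 rose (Nfe2l2 and Sqstm1), 1 fell (Trim16) and 2 did not pass (Keap1 and Pir). Nfe2l2 (chr2:75675513-75704641, minus strand, mm10) was at 91.7 CPM (vehicle), 85.2 CPM (α-amyrin) and 88.4 CPM (β-amyrin) at P1 and, in that order, 96.2, 104 and 96.1 CPM at P6. The P6 libraries lay above P1 by a margin of a few CPM. The log2 fold change was 0.16 ± 0.06 (edgeR adjusted p = 0.0463), and the call held without P6 vehicle but was lost with each of the other 5 libraries left out, with estimates of 0.09 to 0.20. Keap1, its inhibitor, was at 58.9, 65.8 and 56.6 CPM at P1 and 62.4, 62.3 and 64.1 CPM at P6. The passages overlapped, and the estimate was 0.06 ± 0.06 with a 95% interval of -0.09 to 0.21 (edgeR adjusted p = 0.426). An antisense gene, Gm16754, overlaps Keap1 and held 27.8% to 30.2% as many counts, so the level of Keap1 is uncertain to that extent.

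Sqstm1, the autophagy adaptor p62 that binds KEAP1, rose by 0.44 ± 0.07 (edgeR adjusted p = 0.00129) and held 334 to 404 CPM in the P1 libraries and 478 to 509.7 CPM in the P6 libraries. Trim16, a tripartite-motif protein, was at -0.15 ± 0.05 and its call (edgeR adjusted p = 0.0308) was lost with any 1 library left out except P6 β-amyrin, at -0.18 to -0.13. Pir, an iron-binding nuclear protein, was under 5 CPM and at 0.29 ± 0.16, not past the test. Of 14 other regulators 3 were higher and 6 lower, beside 30% and 29.1% of all genes. Bach2, a repressor at antioxidant response elements, was at 10.2, 9.28 and 10.5 CPM at P1 and 3.38, 3.34 and 3.62 CPM at P6 and fell with a log2 fold change of -1.53 ± 0.11. Nfe2l1, a relative of NRF2, rose by 0.59 ± 0.05 and Sesn1, a sestrin, by 1.32 ± 0.15. Bach1, named after its values were seen, was at -0.43 ± 0.06, also lower. Named likewise, Maff, a small MAF protein, was at 25.8, 26.0 and 30.3 CPM at P1 and 19.3, 15.1 and 16.1 CPM at P6.

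Across all 7 lists, 97 of 107 other pathway genes could be tested. Of these, 45 were higher, 24 lower and 28 not called, with a median log2 fold change of 0.17. Of all genes tested 30% were higher and 29.1% lower, with a median of 0.00. Within single treatments, which give no test, the members' median log2 ratio of P6 over P1 was 0.24 for vehicle, 0.33 for α-amyrin and 0.33 for β-amyrin. With vehicle 5 members were at least 2-fold higher and 1 lower, beside 5.6% and 3.84% of all genes; with α-amyrin 6 and 1, beside 5.72% and 3.97%; and with β-amyrin 4 and 1, beside 5.68% and 3.87%. The upward lean was thus present in each of the 3 pairs of libraries.

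α-amyrin against vehicle asks whether the compound moved the pathway over both passages. No member was called by edgeR, beside 0.0295% of all genes (0.0118% higher and 0.0177% lower). At an unadjusted p under 0.05 there were 11 of the 38 members, a larger share than the 1995 of all 16962 genes (11.8%). DESeq2 called 2 (Txnrd1 and Hmox1, both lower) and limma on FPKM called none. Of all 16962 genes DESeq2 called 100 higher and 106 lower, and limma called none. The median over the members was -0.04, beside 0.01 over all genes. In single libraries no member with at least 5 CPM in 1 of them differed 2-fold at either passage, beside 0.206% of all genes up and 0.124% down at P1 and 0.0825% and 0.171% at P6. The direction was the same at both passages for 26 members, 8 up and 18 down, and opposite for 12; over all genes tested 30.7% were up at both, 28% down at both and 41.3% opposite.

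Among members with a mean of at least 5 CPM, those lower with α-amyrin at both passages by the widest margin were Hmox1, Txnrd1, Slc7a11, Me1 and Gclm. Hmox1 had log2 ratios to vehicle of -0.43 at P1 and -0.33 at P6. The fitted difference was -0.38 ± 0.06 (95% interval -0.53 to -0.23), with an edgeR adjusted p of 0.126; over other tools and settings the adjusted p ranged from 0.000637 to 0.681, and 4 of 12 alternatives were under 0.05. Txnrd1 was at -0.32 and -0.30, fitted -0.31 ± 0.06 (edgeR adjusted p = 0.154; 0.0018 to 0.786 over the same alternatives). Without P1 β-amyrin the estimates were -0.38 for Hmox1 and -0.31 for Txnrd1, and without P6 β-amyrin they were -0.38 and -0.31. Both fits keep every α-amyrin and vehicle library, so these estimates could hardly move. Over the 12 alternatives the estimates ran from -0.45 to -0.32 for Hmox1 and from -0.34 to -0.27 for Txnrd1.

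Slc7a11 was at -0.88 at P1 and -0.20 at P6, from 567 and 347 counts with vehicle and α-amyrin at P1 and 142 and 98 at P6. The fitted difference was -0.63 ± 0.17 (95% interval -1.02 to -0.23; edgeR adjusted p = 0.27, 0.0119 to 0.825 over the alternatives). Without P6 β-amyrin, an omission that could hardly move it, the Slc7a11 estimate was -0.64. Over the alternatives the Slc7a11 estimate ran from -0.82 to -0.23. Me1 was fitted at -0.20 ± 0.07 and Gclm at -0.22 ± 0.11, neither past the test.

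Higher with α-amyrin at both passages were Gstm1, Ugdh, Fth1, Ftl1 and Trim16. Gstm1 had log2 ratios of 0.35 and 0.26, fitted 0.31 ± 0.09 (edgeR adjusted p = 0.283). Ugdh was at 0.43 and 0.18, fitted 0.31 ± 0.07 (95% interval 0.14 to 0.48, edgeR adjusted p = 0.215). Its estimate without P6 β-amyrin, which could hardly move, was 0.31, and over the alternatives it ran from 0.20 to 0.41. The 2 ferritin chains were at 0.20 ± 0.12 and 0.18 ± 0.05 and Trim16 at 0.06 ± 0.06. Nfe2l2 was fitted at 0.0024 ± 0.07, Keap1 at 0.08 ± 0.08 and Nqo1 at -0.10 ± 0.08; Gclc was at -0.26 ± 0.09, Srxn1 at -0.16 ± 0.08 and Osgin1 at -0.30 ± 0.19. None of these passed the test, and the 95% interval of Nqo1 was -0.30 to 0.09.

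**Figure D4:**
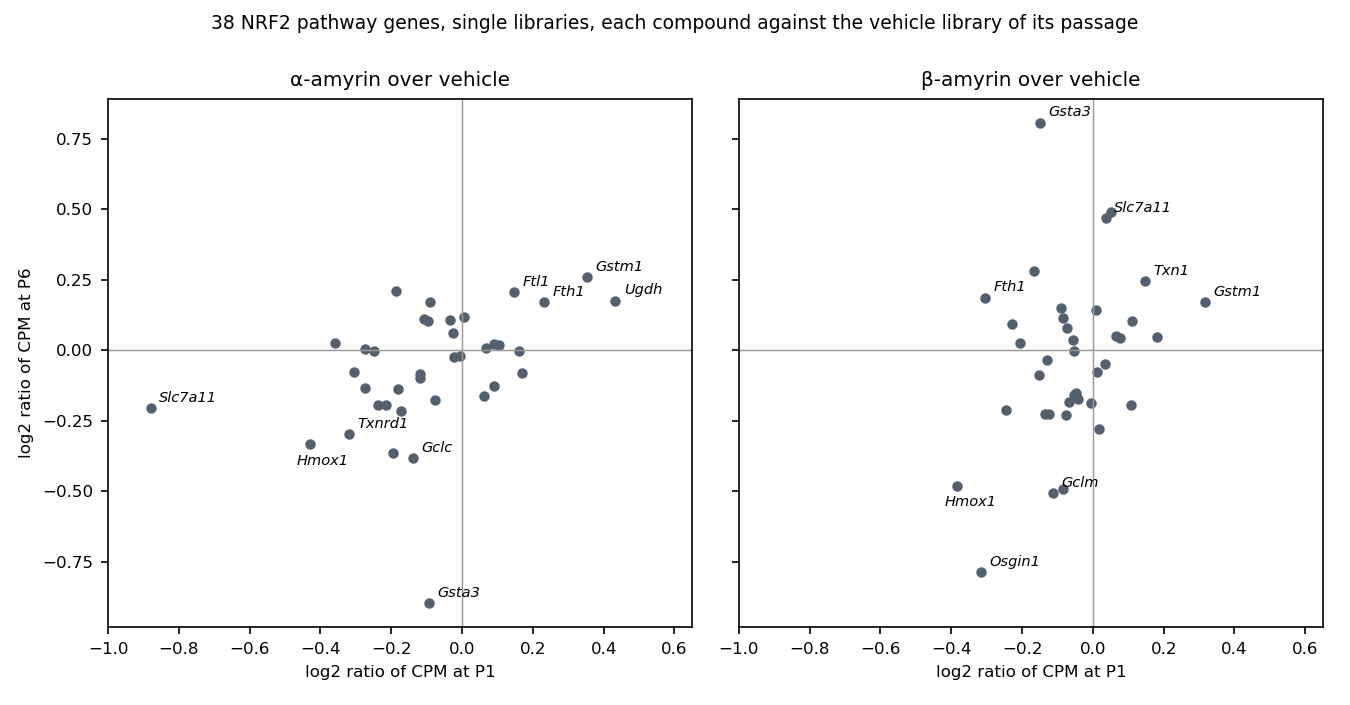
Log2 ratio of CPM of α-amyrin (left) and β-amyrin (right) to the vehicle library of the same passage, P1 on the x axis and P6 on the y axis; each point is 1 of the 38 genes, and the vehicle library is shared by both panels. Hmox1 is below 0 on both axes in both panels, and Slc7a11 is below 0 on both axes with α-amyrin and above 0 on both with β-amyrin.

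β-amyrin against vehicle gave no called member with edgeR, beside 0.0059% of all genes (1 higher). There were 9 of the 38 members at an unadjusted p under 0.05, a larger share than the 1739 of all 16962 genes (10.3%). DESeq2 called 1 (Hmox1, lower) and limma none. Of all 16962 genes DESeq2 called 29 higher and 86 lower, and limma called none. The median over the members was -0.05. In single libraries no member of at least 5 CPM differed 2-fold, beside 0.0236% of all genes up and 0.59% down at P1 and 0.159% and 0.454% at P6. Of the members 9 were up at both passages, 16 down at both and 13 opposite, and of all genes 30.4%, 28.4% and 41.2%. This comparison and that of α-amyrin share their vehicle libraries.

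Among members with a mean of at least 5 CPM, the widest margins below vehicle at both passages with β-amyrin were those of Hmox1, Abcc4, Pgd, Cat and Gclm. Hmox1 was at -0.38 at P1 and -0.48 at P6, fitted -0.43 ± 0.06 (95% interval -0.58 to -0.28; edgeR adjusted p = 0.146, 0.000126 to 0.454 over 12 alternatives, 4 of them under 0.05). Without P1 β-amyrin the Hmox1 estimate was -0.51, and without P6 β-amyrin it was -0.37. Each of these fits leaves 1 β-amyrin library, and both are among the 4 under 0.05. Gclm was at -0.11 and -0.51, fitted -0.31 ± 0.11 (edgeR adjusted p = 0.44). Without P1 β-amyrin, which leaves only the P6 pair, its estimate was -0.52. Abcc4 was fitted at -0.23 ± 0.12, Pgd at -0.18 ± 0.06 and Cat at -0.18 ± 0.06. Osgin1, whose mean was under 5 CPM, had a margin second only to Hmox1, at -0.32 and -0.79, fitted -0.62 ± 0.20 (edgeR adjusted p = 0.419).

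Higher with β-amyrin at both passages were Gstm1 at 0.24 ± 0.08, Txn1 at 0.20 ± 0.06, Trim16 at 0.11 ± 0.06, Ephx1 at 0.06 ± 0.05 and Ugdh at 0.11 ± 0.07. The edgeR adjusted p was 0.434 for Gstm1 and 0.396 for Txn1. Nfe2l2 was fitted at -0.03 ± 0.07, Keap1 at -0.01 ± 0.08, Nqo1 at -0.11 ± 0.08 and Gclc at -0.13 ± 0.09. Txnrd1 was at -0.12 ± 0.06, Srxn1 at -0.09 ± 0.08 and Slc7a11 at 0.21 ± 0.16. Fth1 was lower than vehicle at P1 (-0.30) and higher at P6 (0.19). Without P6 β-amyrin, which leaves only the P1 pair, its estimate was -0.33. β-amyrin was the treatment with the lowest macrophage sum at each passage, and the part of that in these values was not tested.

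The isomers were given at the same dose for the same time, so they can be set against each other directly. For this 1 pair of compounds, with p adjusted over all 16962 genes, edgeR called none, beside 0.059% of all genes (0.0472% higher and 0.0118% lower with α-amyrin). At an unadjusted p under 0.05 there were 8 of the 38 members, a larger share than the 1563 of all 16962 genes (9.21%). DESeq2 called 1 (Slc7a11, lower with α-amyrin) and limma none. Of all 16962 genes DESeq2 called 82 higher and 40 lower with α-amyrin, and limma called none. In single libraries no member of at least 5 CPM differed 2-fold between the isomers (Gsta3, under 1 CPM throughout, had a log2 ratio of -1.70 at P6), beside 0.731% of all genes up and 0.0236% down with α-amyrin at P1 and 0.383% and 0.0884% at P6. Slc7a11 was lower with α-amyrin than with β-amyrin at P1 (-0.92) and P6 (-0.68). The fitted difference, α minus β, was -0.84 ± 0.16 with a 95% interval of -1.23 to -0.44. Its edgeR adjusted p was 0.223, and over 12 alternatives the adjusted p ranged from 0.000382 to 0.938 and was under 0.05 in 3. Among these 3 is the fit without P6 β-amyrin, which leaves 1 β-amyrin library and gave -0.78.

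For the other members, with α minus β estimates as given, Blvrb was at 0.35 ± 0.13, Ugdh at 0.19 ± 0.07 and G6pdx at 0.14 ± 0.06, higher with α-amyrin at both passages, as were Gsta4 at 0.15 ± 0.11 and Ftl1 at 0.10 ± 0.05. Esd at -0.22 ± 0.07, Txn1 at -0.16 ± 0.06, Txnrd1 at -0.18 ± 0.06 and Gclc at -0.13 ± 0.09 were lower with it at both. Fth1 was at 0.25 ± 0.13, and at 0.52 without P6 β-amyrin, which leaves 1 β-amyrin library. Hmox1, with fewer CPM than vehicle under either isomer, differed between them by 0.05 ± 0.06 with a 95% interval of -0.10 to 0.20. For Nfe2l2 the interval was -0.13 to 0.19, for Keap1 -0.09 to 0.27, for Nqo1 -0.19 to 0.20, for Gclc -0.34 to 0.08, for Gclm -0.17 to 0.36, for Srxn1 -0.25 to 0.11 and for Osgin1 -0.18 to 0.80. These intervals bound the differences and do not show that the isomers act alike. In direction, 12 members were higher with α-amyrin at both passages, 11 lower at both and 15 opposite, where 29.2%, 27.7% and 43.1% of all genes were.

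None of the 97 other pathway genes was called by edgeR with α-amyrin, β-amyrin or between them, with 13, 17 and 10 at an unadjusted p under 0.05, where 11.8%, 10.3% and 9.21% of all genes were. limma called none and DESeq2 called none with α-amyrin. With β-amyrin DESeq2 called Abcc3, an exporter of conjugates, at -0.68 and Slc40a1 at -0.76, and between the isomers Abcc3 at 0.74. Over all 16962 genes it called 29 higher and 86 lower with β-amyrin, and 82 and 40 between the isomers. Abcc3 was at 6.83, 7.61 and 3.70 CPM at P1 and 62.1, 61.4 and 41.9 CPM at P6, lowest with β-amyrin at each passage.

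Whether the change with amyrin differed between passages was tested with both isomers taken as 1 amyrin group. Differences between the isomers count as error in that model, whose common biological coefficient of variation was 10.7%. The test is therefore weak for a gene that differs between the isomers, as Slc7a11 did in single libraries. edgeR, DESeq2 and limma called no member, edgeR called 0% of all genes, and the smallest adjusted p among the members was 1.00. At an unadjusted p under 0.05 there was 1 member, Sqstm1, beside 2.66% of all genes, a share near that of the members. For Hmox1 the difference was 0.0032 ± 0.13 with a 95% interval of -0.31 to 0.32, and for Slc7a11 it was 0.55 ± 0.61 with an interval of -0.94 to 2.03.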

How the data were processed

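Read counts per gene, whole numbers that were not normalized, and FPKM values of the same genes (per length and library size) are as the authors deposited them. Per the labels' protocols, poly(A) RNA went into a directional library kit. The build mm10 and featureCounts 1.6.3, HISAT2 2.1.0, Trimmomatic 0.38, FastQC 0.11.7 and SAMtools 1.9 are named in the submitters' processing notes. The strand setting of counting and the making of the FPKM: not given in the sources used here.

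Counts were TMM-scaled and tested in edgeR 4.0.16 (R 4.3.3; filterByExpr by passage, estimateDisp, glmQLFit, glmQLFTest) with passage and treatment as additive terms over all 6 libraries, 1 per condition. The 2 residual degrees of freedom come from departures from additivity, so a response that differs between passages counts as error; the common biological coefficient of variation was 7.72%. P-values were Benjamini-Hochberg adjusted over 16962 genes and called below 0.05. A second model crossed passage with amyrin. Ratios of single libraries used CPM with a prior count of 2, carry no p, and counted as changed at 2-fold with 5 CPM in at least 1 library. Alternatives were DESeq2 1.42.0, limma 3.58.1 on log2(FPKM + 1) or log2(FPKM + 0.1), other scalings, no filter, passage alone and leaving out each library. A fit without 1 library keeps 1 library of that treatment. The code was tested on simulated data. Totals of 18798418 to 28752332 counts set the precision of low genes.

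The 38 genes and all lists were chosen with earlier results of these data known. Values in every library are given for members called with an absolute log2 fold change of at least 0.5 and for 10 set members. For compounds, up to 5 members per direction with the same direction at both passages, the largest smaller ratio and a mean of at least 5 CPM are named, and up to 3 genes per other list with the smallest adjusted p. Promoters are from RefSeq, GRCm38.p6.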

Additional observations from a re-analysis of the deposited data

How the results depend on the processing

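Over 13 alternatives the passage counts stayed at 20 to 22 members higher and 4 to 7 lower, and 20 of the 22 higher and 4 of the 6 lower members passed in all of them; Nfe2l2 was lost in 10, Gclc in 9, Trim16 in 7 and Prdx6 in 5. No estimate past the threshold changed sign. Over all genes the passage calls ran from 4152 higher and 4115 lower of 16962 with DESeq2 to 5238 and 5217 of 29952 with no filter. For α-amyrin, members called higher went from 0 to 2 with no low-count filter, and members called lower from 0 to 3 with no filter and 2 with DESeq2; leaving out each library gave 0 to 1 higher and 0 to 3 lower. For β-amyrin, members called lower went from 0 to 1 with no filter and 1 with DESeq2, and 0 to 2 with each library left out. Between the isomers, members lower with α-amyrin went from 0 to 1 with no filter and 1 with DESeq2, and with each library left out 0 to 1 were higher and 0 to 1 lower. By size, the α-amyrin pair of P6 over P1 went from 7 members to 4 and the β-amyrin pair from 5 to 2 with log2 ratios of FPKM + 1. The cause was not tested. On the log2(FPKM + 1) scale, which understates low genes, the passage estimates of Slc7a11 and Osgin1 were -0.68 and 0.82.

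Over all genes the compound counts moved too, with 29952 genes tested where there was no filter. For α-amyrin there were 220 higher and 244 lower with no filter, 100 and 106 with DESeq2 and 0 and 0 with limma. In that order there were 82 and 322, 29 and 86, and 0 and 0 for β-amyrin. Between the isomers there were 351 and 133, 82 and 40, and 0 and 0. For passage by amyrin there were 101 and 58 with no filter and 4 and 17 with DESeq2. Leaving out each library gave, higher and lower, 0 to 175 and 0 to 192 for α-amyrin, 0 to 49 and 0 to 298 for β-amyrin and 0 to 361 and 0 to 78 between the isomers. The interaction could not be estimated without P1 vehicle or without P6 vehicle. No paired analysis was possible because the labels give no replicate numbers. With 1 library per condition, small differences were not detectable for genes of few counts such as Gsta3.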
